A study of Mus musculus with 9 samples.

Results

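Mitochondrial ribosomal protein genes encode the proteins of the ribosome that works inside the mitochondrion. They were taken as all genes whose symbol in the array files begins with Mrpl or Mrps followed by a digit, and 69 of the 15674 genes on the array met this rule. Of these, 42 carry an Mrpl symbol and 27 an Mrps symbol, and they were measured by 79 probes. RNA came from a 2 cm segment of the jejunum, the middle part of the small intestine, of 9 male mice of the outbred stock OF1, all 7 weeks old. The mice belonged to generation 3 of a feeding trial in which 3 mice each had received feed B, feed K or feed G, and the letters are not explained in the sources used here. The sources used here give no genetic change or drug for any group. All mice shared a fast of 3 h in the light phase, with water, before sampling, and each array held RNA of 1 mouse. A mouse is named below by the letter of its feed and its number, so that B7 is mouse 7 of feed B.

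The mitochondrial ribosome translates the few messages that the mitochondrial genome encodes, all of them subunits of the oxidative phosphorylation complexes. Its RNAs are made in the organelle, whereas all of its proteins are encoded in the nucleus, translated in the cytosol and imported. A part of the proteins descends from the bacterial ribosome, and the others were added in the mitochondrial lineage. The small subunit decodes the message, and the large subunit forms the peptide bond and is held at the inner membrane. In the intestine, the absorptive cells draw on oxidative phosphorylation for nutrient transport, and the rest of the jejunal wall contributes RNA as well. Genes of this ribosome are widely expressed, and the uniformity of their signal over mice was the question put to them here, together with any difference between feeds.

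By known structure, 44 of the 69 genes belong to the large and 24 to the small subunit. Symbols and structure part ways for Mrps30 and Mrps18a, whose proteins sit in the large subunit. Mrps36 is in neither list, because its protein is now known as a subunit of the 2-oxoglutarate dehydrogenase complex. All 69 symbols are current in the RefSeq gene table, where the genes lie on 17 chromosomes. A RefSeq accession was given for 68 of the 79 probes and named the same gene in each case. The other probes had no accession and could not be checked in this way. They include both probes of Mrpl27 and the only probes of Mrps27, Mrpl38, Mrpl12 and Mrps21. Mrpl21, Mrpl42, Mrpl57, Mrpl58 and Mrps26 were measured under older names that the rule does not take, and they are described further down with other genes of mitochondrial translation.

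The promoters of the members are shown first, since the genes share an organelle but not a chromosome. RefSeq windows (assembly GRCm38.p6) from 250 bases before to 50 bases after the start of transcription were at hand for 60 of the 69 members. Each was searched on both strands for GCGCA, any base (N) and GCGC in a row, the core of the site of NRF1, a regulator of nuclear genes for mitochondria. The letters occurred in 10 of 60 members (16.7%) and in 4.78% of all windows, here those of 27025 RefSeq genes. They occurred in 11.2% of the windows of detected genes, here the 2823 with a window that were detected on all 9 arrays. The letters CCGGAAGT, the core of ETS sites such as those of GABP, occurred in 9 members (15.0%), compared with 4.00% of all windows and 8.40% of those of detected genes. The letters AAGATGGC, the core of the YY1 site, occurred in 11 members (18.3%), compared with 2.88% and 4.85%. For YY1 the first match lay at or after the start of transcription in 7 of the 11 members, and for NRF1 it lay before the start in 9 of 10. At least 1 of these 3 sets of letters was found in 28 members (46.7%), compared with 22.5% of the detected genes. The TATA box letters TATAAA were found in 4 members (6.67%), compared with 14.2% of all windows and 8.40% of those of detected genes. Counted from the start of transcription, they began at -68 in Mrpl16, -131 in Mrpl46, -154 in Mrps17 and -181 in Mrps24. The E-box letters CACGTG were found in 4 members as well, compared with 7.24% and 10.9%. These are matches of letters, and binding was not measured.

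Several members start beside a gene that runs the other way. Such a neighbour, with its start at most 1000 bases upstream, was present for 20 of the 60 members (33.3%). The shares were 11.4% of the 27025 RefSeq genes and 16.5% of the 2823 detected genes with a window. In 13 members at most 146 bases lay between the starts. One such pair consists of members only, counted for both: 41 bases separate the starts of Mrpl46 and Mrps11 on chromosome 7. The sequences between the paired starts of Mrps11, Mrpl43 and Mrps12 and the 120 bases upstream of Mrpl12, Mrps21 and Mrps22 are given as examples of paired starts and of the NRF1 and ETS letters. Each is written 5′ to 3′ on the strand of the named member, and capitals mark the NRF1 letters in Mrpl12 and Mrps21, which match on the opposite strand, and the ETS letters in Mrpl43 and Mrps22.
Mrps11, shared with Mrpl46, chr7:78783090-78783130, plus strand: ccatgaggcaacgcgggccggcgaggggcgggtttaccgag
Mrpl43, shared with Twnk, chr19:45006443-45006557, minus strand: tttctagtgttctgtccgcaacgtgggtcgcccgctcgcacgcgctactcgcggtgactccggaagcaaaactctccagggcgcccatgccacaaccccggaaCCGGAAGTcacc
Mrps12, shared with Sars2, chr7:28741822-28741967, minus strand: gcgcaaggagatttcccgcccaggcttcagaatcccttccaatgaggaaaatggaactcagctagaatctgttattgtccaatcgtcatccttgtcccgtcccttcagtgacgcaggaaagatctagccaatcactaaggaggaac
Mrpl12, chr11:120484517-120484636, plus strand: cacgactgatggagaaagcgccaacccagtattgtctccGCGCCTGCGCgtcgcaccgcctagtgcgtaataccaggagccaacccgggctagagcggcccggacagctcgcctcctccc
Mrps21, chr3:95871515-95871634, minus strand: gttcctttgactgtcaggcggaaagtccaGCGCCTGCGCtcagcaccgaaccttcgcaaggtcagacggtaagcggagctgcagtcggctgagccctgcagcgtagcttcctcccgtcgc
Mrps22, chr9:98601680-98601799, minus strand: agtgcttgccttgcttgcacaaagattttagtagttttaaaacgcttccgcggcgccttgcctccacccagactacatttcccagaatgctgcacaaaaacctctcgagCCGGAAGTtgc

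The arrays give a signal in arbitrary units of brightness, which depends on the probe, so that the log2 signal of one gene is not set against that of another. A gene counted as detected in a mouse if 1 of its probes stood at least 3 times above noise there. Detected probes made up between 33.7% and 43.6% of all probes on the arrays of feed B, between 41.2% and 47.6% for feed K and between 46.4% and 48.1% for feed G. The shares of feed G thus lay above those of feed B, and those of feed K overlapped both. A cause of this was not tested. The 4 absorptive enterocyte markers on the array (Fabp1, Fabp2, Apoa1 and Apoa4) were detected in all 9 mice. Fabp6, a gene typical of the ileum, the last part of the small intestine, stood at a log2 signal of 15.81 in B7, 17.84 in B10 and 19.51 in G11, and at most at 12.19 in the other mice. Slc10a2, a second gene typical of the ileum, stood at 12.05 in B10 and 12.66 in G11. In B7 it read 9.46, below 9.73 in K4, so that it did not set B7 apart. Results that change without the 3 mice with high Fabp6 are therefore given both ways.

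Most members were measurable in every mouse. On all 9 arrays, 58 of the 69 genes (84.1%) were detected, compared with 37.6% of all genes, 92.2% of 64 cytosolic ribosomal protein genes and 83.6% of 61 oxidative phosphorylation subunit genes. The shares were 37 of 44 for the large and 20 of 24 for the small subunit. Per array, between 63 and 70 of the 79 member probes were detected, the lowest number in B8 and the highest in K3 and G8.

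The other 11 members were dim. Mrpl20 and Mrps14, which code for counterparts of bacterial ribosomal proteins, were not detected on any array. Mrpl15 and Mrps18a were detected on 1 array each, Mrpl3 and Mrpl51 on 2 each, Mrpl19 and Mrps10 on 5, Mrpl45 on 6, and Mrps2 and Mrps11 on 7. Values of undetected spots hold mostly noise, and spots of Mrpl20 (K4) and Mrpl3 (K4 and G11) had failed and were left out. A single probe measured each of these 11 genes, and which part of the transcript a probe reads was not analysed here. The 63 members detected on at least 3 arrays entered the tests between feeds.

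The signal of most members was uniform over the 9 mice. Over the 58 members detected everywhere, the SD of the log2 signal over mice had a median of 0.195 (quartiles 0.143 and 0.256), compared with 0.293 for the 5887 genes detected everywhere. In 50 of the 58 members the highest mouse was at most 2-fold above the lowest, a share of 86.2%, whereas 57.9% of all genes met this bound. The median ratio of highest to lowest was 1.48 for members and 1.85 for all genes. Between log2 signals of 9.86 and 12.78, the range of the middle 80% of members, the median SD was 0.191 for 46 members and 0.270 for 3474 genes. Brightness was not equal within that range, since the median log2 signal was 11.65 for these members and 11.05 for all genes in it. Cytosolic ribosomal protein genes had a median SD of 0.215, with 46 of 59 (78.0%) within 2-fold. Oxidative phosphorylation subunit genes had one of 0.210, with 46 of 51 (90.2%) within 2-fold, a higher share than that of the members.

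**Figure D1:**
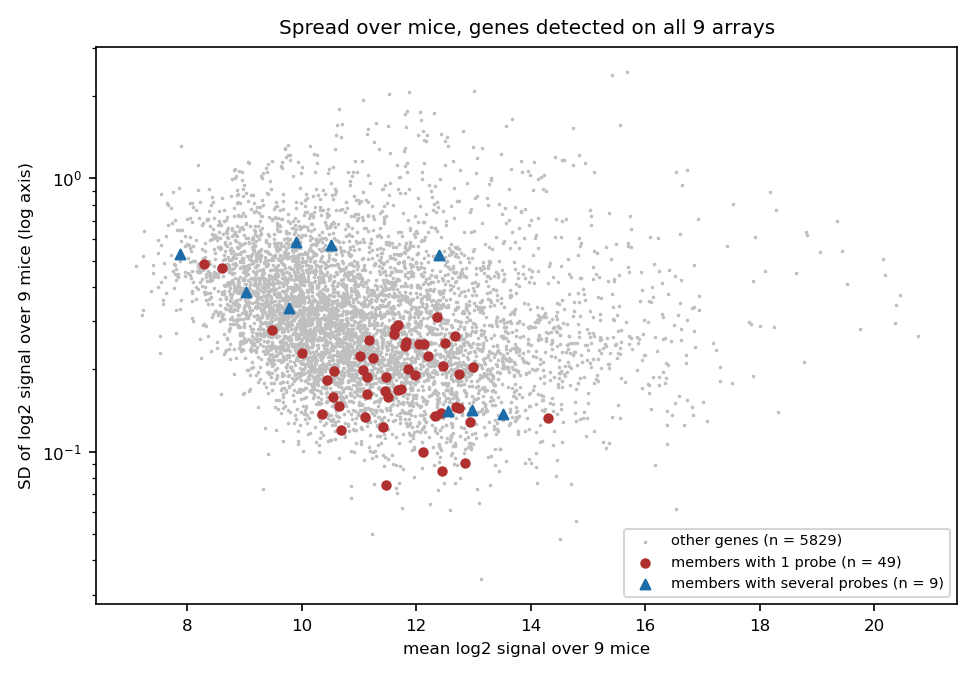
SD of the log2 signal over the 9 mice (log axis) against the mean log2 signal, for genes detected on all 9 arrays. Grey points are other genes, red circles the 49 members with 1 probe and blue triangles the 9 members with several probes. Red circles lie mostly in the lower part of the cloud, and 6 of the 9 triangles have an SD between 0.33 and 0.59.

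These spreads depend on how the arrays were scaled to each other. After median scaling in place of quantile normalization, the median SD rose to 0.316 for members and 0.437 for all genes, and the 2-fold bound was met by 39 of 58 members (67.2%) and 24.8% of all genes. With the values normalized by the authors, the medians were 0.260 and 0.387, and 41 members (70.7%) and 36.7% of all genes met the bound. Under each of the 3 scalings, the members varied less than the genes as a whole. Without the mice B7, B10 and G11 the medians were 0.165 and 0.268.

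The 6 most uniform members were Mrpl53, Mrps24, Mrps21, Mrpl28, Mrpl50 and Mrpl39, with an SD between 0.08 and 0.12. Mrpl53, a mitochondria-specific protein of the large subunit, had log2 signals of 11.50, 11.55 and 11.48 in B7, B8 and B10, 11.43, 11.45 and 11.58 in K1, K3 and K4, and 11.42, 11.32 and 11.46 in G4, G8 and G11. Its highest mouse was thus 1.20-fold above its lowest. Mrps21, the counterpart of bacterial S21 and one of the genes with the NRF1 letters printed above, measured 12.86, 12.97 and 12.80 on feed B, 12.73, 12.90 and 12.73 on feed K, and 12.81, 12.87 and 12.98 on feed G. The 3 feeds overlapped fully, and the ratio of highest to lowest was 1.19. Mrps24, the mitochondrial form of S3, ranged from 12.34 to 12.60, and Mrpl28, the counterpart of L28, from 11.99 to 12.28. After median scaling the SDs of these 6 genes lay between 0.29 and 0.36, around the median of 0.316 over members, so that their rank as the most uniform depends on quantile normalization.

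At the other end, 8 members detected on all 9 arrays exceeded the 2-fold bound: Mrps33, Mrpl48, Mrps36, Mrpl27, Mrps27, Mrpl38, Mrpl23 and Mrpl32. Of these, 6 have several probes, and only Mrps27 and Mrpl38 have 1. Mrps27, a pentatricopeptide repeat protein of the small subunit, stood at 7.74, 9.04 and 8.65 in B7, B8 and B10, at 9.35, 8.69 and 8.22 in K1, K3 and K4, and at 8.75, 8.65 and 8.31 in G4, G8 and G11. Both the lowest and the second highest mouse were on feed B. Mrpl38, a mitochondria-specific protein of the large subunit, ranged from 7.70 in K3 to 9.20 in K4, both on feed K. The widest distance between mice was thus one within a feed for Mrpl38.

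Of the 9 members with several probes, 6 combine a bright probe detected in all mice with at least 1 dim probe that was not. Mrpl27, the counterpart of L27 near the peptidyl transferase centre, had a bright probe at 18.35, 18.63 and 18.47 on feed B, 18.50, 18.40 and 18.79 on feed K, and 18.78, 18.56 and 18.86 on feed G. Its second probe was detected only in G4 and G8 and read 6.20, 4.74 and 5.34 on feed B, 6.38, 5.63 and 5.92 on feed K, and 7.98, 6.84 and 6.87 on feed G. The highest mouse was 1.43-fold above the lowest for the bright probe, and the values of the dim probe in the other 7 mice hold mostly noise. Averaging both on the log2 scale gave Mrpl27 an SD of 0.52, compared with 0.18 for the bright probe alone.

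Other members were built alike. The bright probe of Mrps33 ranged over 1.63-fold and its dim probe was detected on 6 arrays. For Mrps36 the bright probe ranged over 1.55-fold and the dim probe was detected on 7 arrays. Mrpl48, with 3 probes, had a bright probe with a range of 1.47-fold, and the other two were detected on 2 arrays and on none. Mrpl23 had a bright probe within 1.29-fold and a probe that was not detected on any array, and Mrpl32 one within 1.66-fold and one detected on 4 arrays. The bright probes of Mrpl32, Mrps33 and Mrps36 thus ranged more widely than the median member, at 1.48-fold, and those of Mrpl23, Mrpl27 and Mrpl48 less. RefSeq lists pseudogenes named after Mrpl23, Mrpl27, Mrpl48 and Mrps36, and pseudogenes under other symbols were not searched for. Whether a probe reads a pseudogene or a variant transcript was not tested.

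In Mrpl18, Mrpl30 and Mrpl33 both probes were detected in all mice. The probes of Mrpl30, the counterpart of L30, read 13.01, 12.90 and 12.76 with the brighter and 12.62, 12.51 and 12.46 with the dimmer one on feed B. On feed K they read 12.67, 12.54 and 12.72 against 12.32, 12.22 and 12.40, and on feed G 12.70, 12.57 and 12.71 against 12.49, 12.22 and 12.32. Both probes had B7 highest, and both had K3 and G8 as the 2 lowest mice. With the brightest probe in place of the mean, 56 of 58 members (96.6%) were within 2-fold, compared with 60.9% of all genes.

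**Figure D2:**
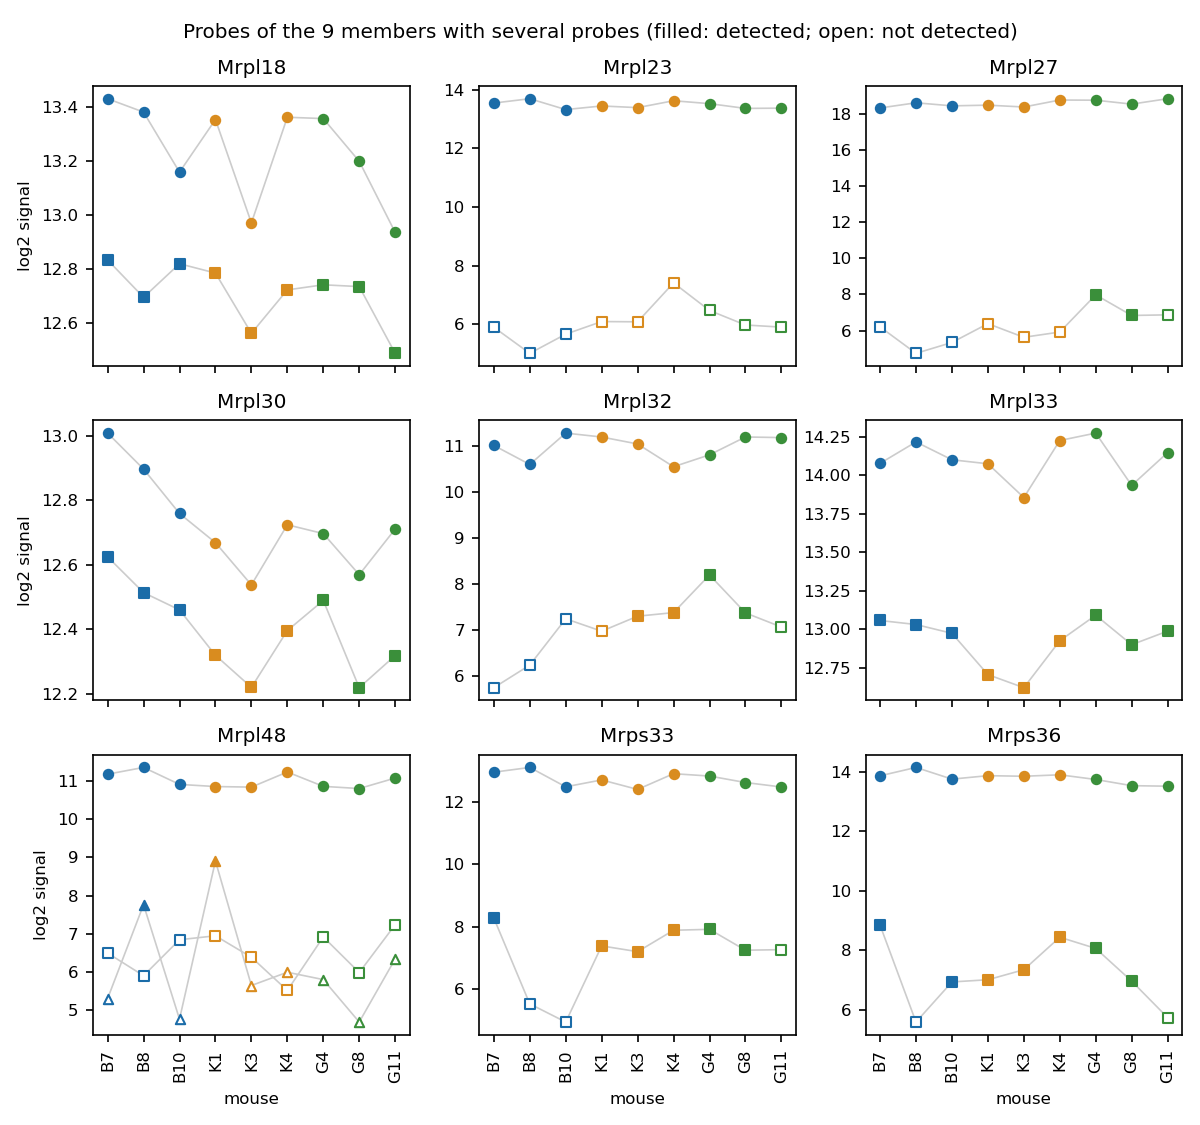
Log2 signal of each probe in each mouse for the 9 members with several probes, blue for feed B, orange for feed K and green for feed G. Filled symbols were detected and open ones not, and grey lines join the values of a probe. In Mrpl23, Mrpl27, Mrpl32, Mrpl48, Mrps33 and Mrps36 the dim probes, with open symbols where they were not detected, are spread more widely than the bright ones.

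The subunits were set side by side by their medians. The median SD was 0.191 over 37 genes of the large and 0.200 over 20 genes of the small subunit. Counterparts of bacterial proteins had medians of 0.193 (large, n = 24) and 0.247 (small, n = 11), and mitochondria-specific proteins 0.191 (large, n = 13) and 0.145 (small, n = 9). Differences between these small lists were not tested.

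Members known for a particular place or function in the ribosome gave the following values. Mrpl12, the stalk protein that also binds the mitochondrial RNA polymerase, measured 11.21, 11.35 and 12.00 on feed B, 12.05, 11.80 and 11.49 on feed K and 11.93, 11.66 and 11.69 on feed G. The low values were those of B7 and B8, and B10 lay among the mice of the other feeds. Mrpl11, at the base of the same stalk, ranged from 10.86 in K3 to 11.43 in B10. Mrps12, the decoding centre protein, ranged from 11.58 in G8 to 12.26 in K4, and Mrps35 of the small subunit from 12.18 in G11 to 12.57 in K4. Mrps30, in the large subunit despite its name, ranged from 12.38 in G11 to 13.05 in B7. Mrpl45, at the membrane side of the large subunit, was detected in 6 mice only. Among these its values lay between 6.98 in G11 and 8.36 in B8.

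The 3 Mrps18 genes are paralogues, copies that arose by duplication of 1 ancestral gene and whose proteins occupy different places in the ribosome. Mrps18b was bright and uniform at 12.99, 12.99 and 13.02 on feed B, 13.14, 12.80 and 12.98 on feed K and 12.95, 12.91 and 12.70 on feed G. Mrps18a was detected only in B10, where it read 7.69, and Mrps18c was not analysed here.

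The study has no feed labelled as control, and the main question was whether any feed differed. No member did so after correction for 9652 genes tested (limma, moderated F test over 3 feeds of 3 mice, Benjamini-Hochberg adjusted p at 0.05), and neither did any other gene: the share called was 0%. The smallest adjusted p of a member was 0.729. At an unadjusted p of 0.05, 1 of 63 members (1.59%) and 5.37% of all genes passed. At that level an unmoderated F test gave 2 members (3.17%, all genes 5.26%) and an exact permutation test of F gave 4 members (6.35%, all genes 5.09%), again with 0 after adjustment. The pairwise limma contrasts also called 0 members after adjustment, and 0% of all genes in each of the 3 pairs. Before adjustment, at 0.05, 3 of 63 members (Mrpl27, Mrpl32 and Mrps11) had a higher signal with feed G than with feed B (all genes 3.84%) and Mrpl35 had a lower one (1 of 63, all genes 1.9%). Between K and B, Mrps11 was higher (1 of 63, all genes 4.34%) and 0 members were lower (all genes 1.97%). Between G and K, Mrpl27 was higher (1 of 63, all genes 2.14%) and 0 were lower (all genes 2.39%). With 3 mice per feed the precision is limited: the standard error of a difference was at least 0.15 for every member named here.

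The member with the smallest p was Mrpl27. Its mean over probes was 11.95 ± 0.30 (SD, n = 3) on feed B, 12.27 ± 0.23 on feed K and 12.98 ± 0.35 on feed G, a difference between G and B of 1.03 ± 0.25 (SE, limma adjusted p = 0.472). The mice of feed G lay above all others. The values printed above show that the dim probe carries this difference: with the bright probe alone it was 0.25 ± 0.18 (F test in limma, adjusted p = 0.904).

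Mrps11, a platform protein of the small subunit, came next. It read 8.00, 7.82 and 9.18 on feed B, of which 1 value was above the detection bound, 9.21, 9.07 and 9.26 on feed K, and 9.26, 9.30 and 8.94 on feed G. Feeds K and G overlapped, B7 and B8 lay below all other mice, and B10 lay among them. The difference between K and B was 0.84 ± 0.34 (limma adjusted p = 0.786). Its divergent partner Mrpl46, whose start is 41 bases away, gave a difference of the opposite sign between G and B on this scale, with 11.34, 11.61 and 11.72 on feed B, 11.65, 11.40 and 11.46 on feed K, and 11.36, 11.28 and 11.26 on feed G, or -0.25 ± 0.18.

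Of the others among the 8 smallest p values, Mrpl35, Mrpl54 and Mrpl37 were lower on feed G. Mrpl35, the counterpart of L35, read 12.70, 12.83 and 12.66 on feed B, 12.61, 12.20 and 12.78 on feed K, and 12.25, 12.29 and 12.28 on feed G. All mice of feed G were below all of feed B, whereas K3 was the lowest mouse of all. The difference between G and B was -0.45 ± 0.19 for Mrpl35, -0.42 ± 0.21 for Mrpl54 and -0.37 ± 0.19 for Mrpl37 (limma adjusted p between 0.858 and 0.879). After median scaling these differences were 0.10, 0.12 and 0.20 while the median of all genes was 0.53, so that their sign depends on the scaling and all 3 genes stayed below the median of all genes. Mrpl54 and Mrpl37 are mitochondria-specific proteins of the large subunit.

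Mrps6, the counterpart of S6, was higher on feed G, with 11.32, 11.20 and 11.77 against 11.01, 10.90 and 11.20 on feed B and 11.06, 11.00 and 11.08 on feed K. The difference between G and B was 0.39 ± 0.20, and without G11 it was 0.22. Mrpl32, the counterpart of L32, differed by 0.62 ± 0.26 as the mean of its probes, and by 0.10 ± 0.26 with its bright probe. Mrpl19, the counterpart of L19, was not detected in any mouse of feed B and in all 3 of feed K. It read 9.70, 9.20 and 9.31 on feed B and 9.90, 9.67 and 10.12 on feed K, so that B7 lay above K3. The difference was 0.49 ± 0.27 (limma adjusted p = 0.817), and the values of feed B were not above the detection bound.

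Although no single member passed the test, the differences between feeds G and B leaned one way on the quantile normalized scale. Of the 58 members detected everywhere, 45 had a lower mean on feed G (77.6%), compared with 50.4% of all genes, and the median difference was -0.12 for members and -0.003 for all genes. In 16 members (27.6%) every mouse of feed G was below every mouse of feed B, compared with 6.23% of all genes, and in 2 members (Mrpl27 and Mrps6) every mouse was above, compared with 5.11%. The 16 include Mrpl28, at 12.10, 12.14 and 12.12 on feed B and 12.02, 11.99 and 12.01 on feed G, and Mrpl50, Mrpl53, Mrps18b and Mrps24. Such differences are small: for Mrpl28 it was -0.11 ± 0.15. Among large subunit genes 29 of 37 were lower on feed G (median -0.14) and among small subunit genes 15 of 20 (median -0.08).

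**Figure D3:**
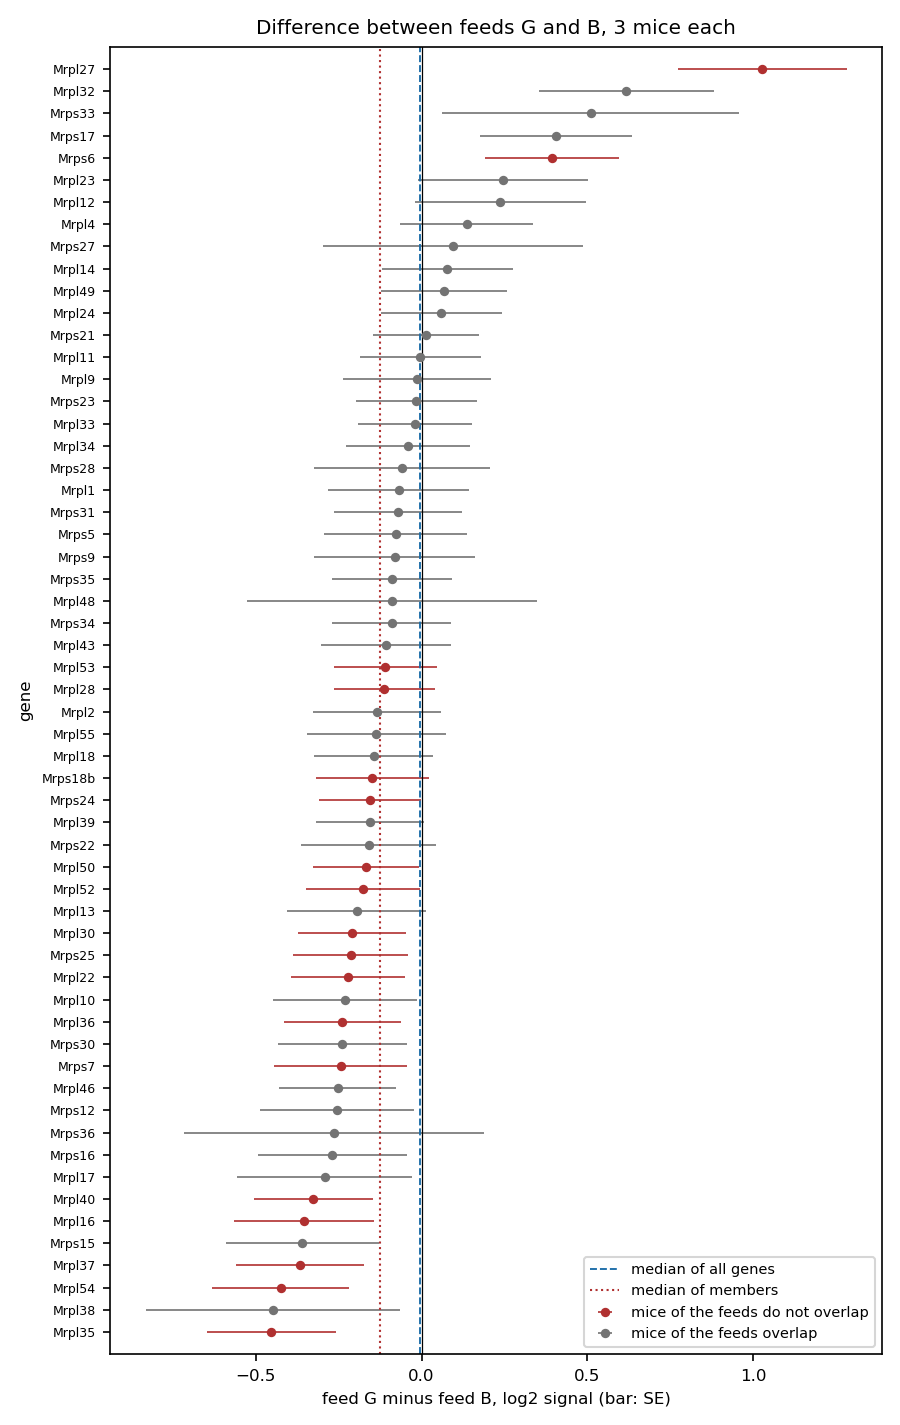
Difference of mean log2 signal between feeds G and B for the 58 members detected on all 9 arrays, with the standard error of the limma fit. Red marks genes whose mice of the 2 feeds do not overlap, the dotted line the median of members (-0.12) and the dashed line that of all genes (-0.003); 45 genes lie below 0.

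The sign of this lean depends on the scale, and its size relative to other genes does not. After median scaling all genes rose from B to G by a median of 0.53 and the members by 0.41, so that 2 of 58 members were lower on feed G, compared with 5.32% of all genes. With the authors' normalized values the medians were 0.30 and 0.19. Relative to the median of all genes, the members stood at -0.12 with quantile normalization, -0.12 with median scaling and -0.11 with the authors' values. After the median of each array was taken off, 13 members (all genes 5.86%), 11 members (6.32%) and 8 members (5.72%) had every mouse of feed G below every mouse of feed B under the 3 scalings. In all 3 cases 7 were among them: Mrpl16, Mrpl28, Mrpl35, Mrpl54, Mrps18b, Mrps25 and Mrps7, of which Mrpl16, Mrps25 and Mrps7 are named after their values were seen. The 3 scalings rest on the same arrays, and the share of all genes that met this in all 3 was not computed.

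Mouse by mouse, the median deviation of the members from their own means, relative to that of all genes, was 0.11, 0.03 and 0.03 in B7, B8 and B10, 0.02, -0.10 and 0.003 in K1, K3 and K4, and -0.02, -0.05 and -0.11 in G4, G8 and G11. The mice of feed B lay above those of feeds K and G. Feed K overlapped feed G because of K3, in which 46 of the 58 members were below their own mean, compared with 56.9% of all genes. In G8 44 members were below it (all genes 53.1%) and in G11 41 (52.3%). These counts hold on the quantile normalized scale. After median scaling the median deviation in K3 was 0.27 for members and 0.36 for all genes. After median scaling and with the authors' values, feed K overlapped feed B as well. With the authors' values G4 and B10 overlapped. Without the 3 mice with high Fabp6, which include B7 and G11, the members stood at -0.05 relative to all genes, on 1 mouse of feed B and 2 of feed G. The share of probes detected and the Fabp6 signal both varied with these mice, and their part in the result was not tested. In whole tissue, fewer cells of a type and less RNA per cell cannot be told apart.

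**Figure D4:**
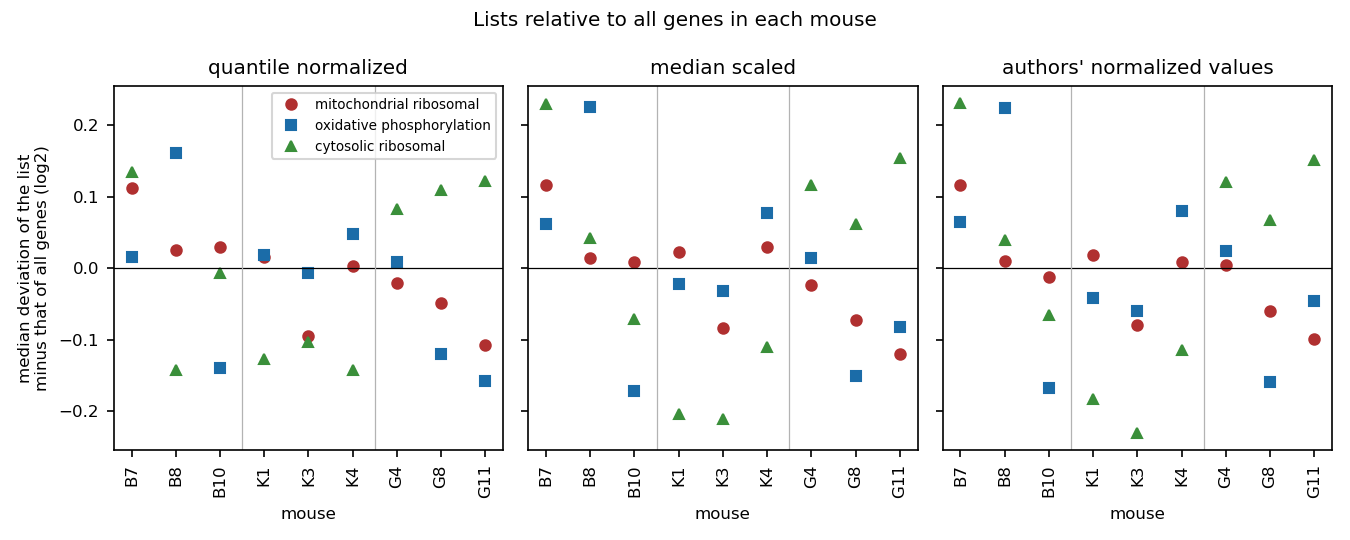
Median deviation of each list from its genes' own means, minus that of all genes, in each of the 9 mice under 3 scalings (log2 units; red circles members, blue squares oxidative phosphorylation, green triangles cytosolic ribosome). The red circles of feed B lie above those of feed G in the first 2 panels, and in the panel of the authors' values G4 and B10 overlap.

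The comparisons with feed K share their mice with the one above. Between K and B the median difference of the members was -0.02 and that of all genes 0.03, with 37 of 58 members lower on feed K, compared with 45.2% of all genes. In 4 members (Mrpl30, Mrpl39, Mrpl50 and Mrps24) every mouse of feed K was below every mouse of feed B, compared with 4.18% of all genes, and in 1 (Mrpl23) above, compared with 5.57%. Between G and K the medians were -0.09 and -0.04, and 43 of 58 members were lower on feed G, compared with 56.1%. The mice did not overlap in 4 members that were lower on feed G (Mrpl28, Mrpl43, Mrpl46 and Mrpl54), compared with 9.24% of all genes, and in 3 that were higher (Mrpl11, Mrpl27 and Mrps6), compared with 5.98%. Relative to all genes the members stood at -0.05 in both comparisons. Between K and B this became -0.10 without B8 or K1, -0.09 without B10 or K4, and -0.03 without B7. Between G and K it became -0.08 without G4, -0.02 without K1 or K4, and -0.01 without G11.

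**Figure D5:**
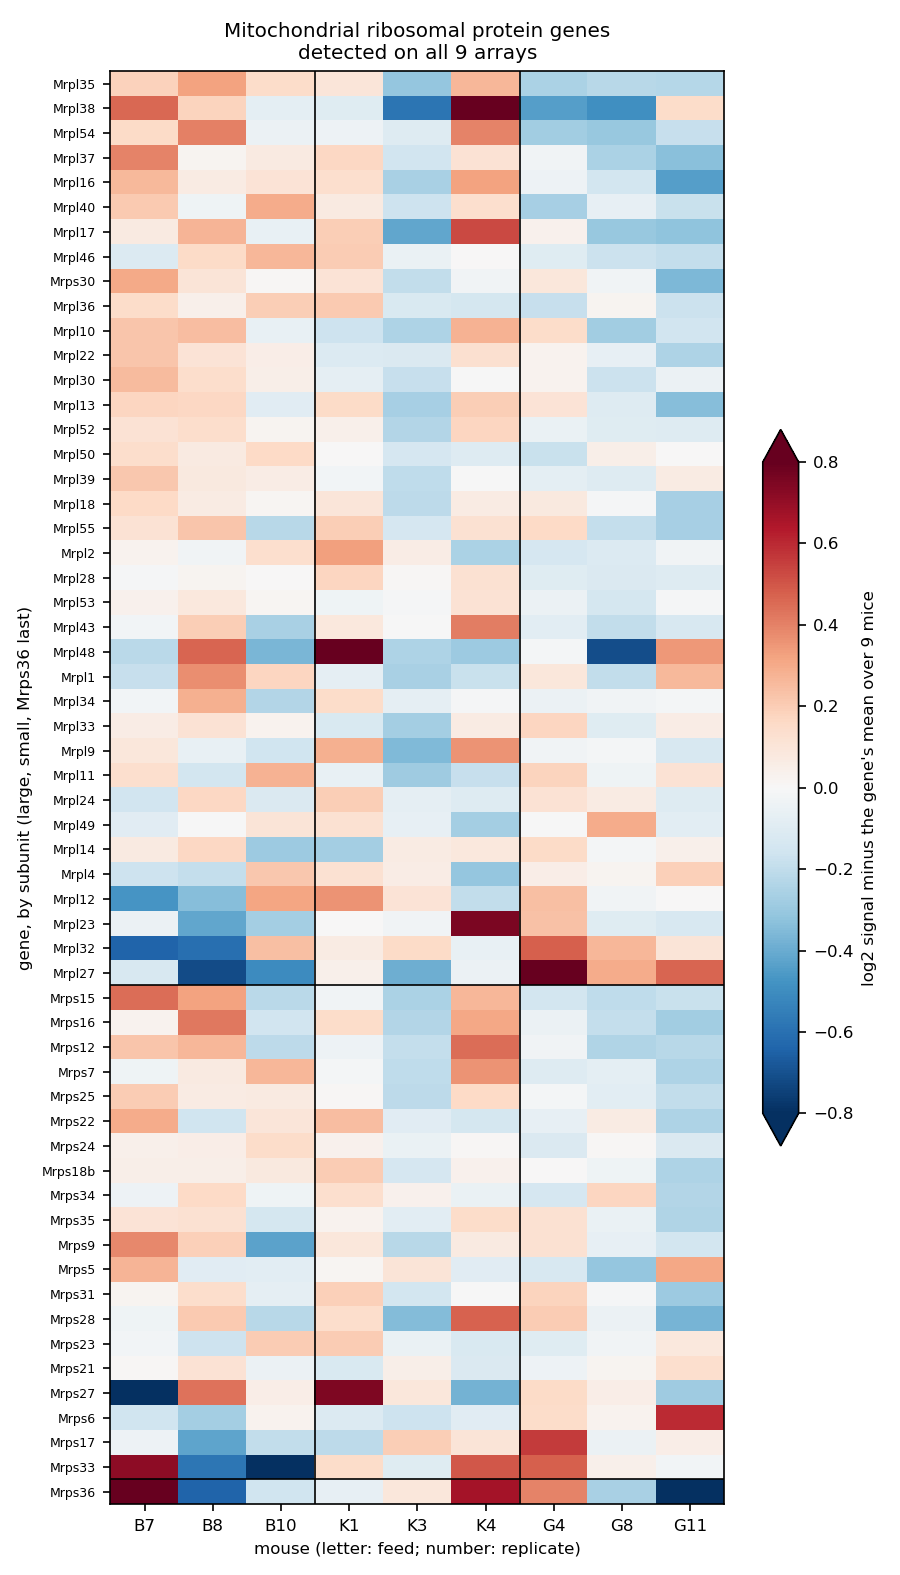
Log2 signal of the 58 members detected on all 9 arrays in each mouse, as the difference from the gene's own mean (red higher, blue lower; values beyond 0.8 are shown at the end of the scale). Genes are ordered by subunit and by the difference between feeds G and B. The K3 column is mostly blue, with 46 of 58 members below their mean (all genes 56.9%), and so is that of G8, with 44 (53.1%).

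Genes that work beside the ribosome were compared in the same way. Between G and B, the oxidative phosphorylation subunits had a median difference of -0.13 (38 of 51 lower), whereas the cytosolic ribosomal proteins had one of 0.09 (39 of 59 higher). Relative to all genes these values were -0.13 and 0.09 with quantile normalization, -0.12 and 0.03 with median scaling, and -0.12 and 0.02 with the authors' values. In both lists the mice of feeds B and G overlapped. Relative to all genes, with quantile normalization, oxidative phosphorylation stood at 0.16 in B8 and -0.14 in B10, and at 0.01 in G4 and -0.16 in G11. The cytosolic ribosome stood at 0.13 in B7 and -0.14 in B8, and between 0.08 and 0.12 on feed G. All lists were measured in the same mice, and the difference between lists was not tested.

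Mitochondrial ribosomal proteins under other names were all detected everywhere, 10 of 10, compared with 37.6% of all genes. Of these, 6 were within 2-fold, a share close to the 57.9% of all genes and below the 86.2% of the members. Mrpl21 (17.2-fold) and Mrpl42 (2.65-fold) exceeded the bound as means of 2 probes each, which were not analysed singly here. Chchd1 (2.59-fold) and Ptcd3 (2.10-fold) exceeded it with 1 probe. The median SD of this list was 0.260, compared with 0.195 for the members and 0.293 for all genes. The list includes Dap3, the GTP-binding protein of the small subunit, and Mrpl58, a peptidyl-tRNA hydrolase built into the large subunit. The smallest p of this list was that of Ptcd3, a pentatricopeptide repeat protein of the small subunit, with 9.62, 9.29 and 9.99 on feed B, 10.35, 10.12 and 9.81 on feed K, and 10.32, 10.33 and 10.00 on feed G. The difference between G and B was 0.58 ± 0.25 (F test in limma, adjusted p = 0.903). Mrpl21, as the mean of its 2 probes, stood at 12.96 in B7 and between 8.86 and 9.94 in the other 8 mice.

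None of the other genes of mitochondrial gene expression passed the F test at an unadjusted p of 0.05 either. This covers 9 translation factors, 17 aminoacyl-tRNA synthetases and related enzymes, 13 assembly factors and 7 genes of mitochondrial transcription that were tested. Over all genes the share was 5.37%, so that finding none in lists of this size says little. Mtif2, the initiation factor that brings the first tRNA, read 6.73, 6.06 and 7.70 on feed B, 7.31, 7.71 and 7.82 on feed K, and 7.56, 7.79 and 7.91 on feed G. B7 and B8 were below all other mice and B10 was not, as for Mrps11, and the difference between G and B was 0.92 ± 0.38 (F test in limma, adjusted p = 0.903). Between the same feeds Wars2, the mitochondrial tryptophanyl-tRNA synthetase, differed by 1.28 ± 0.50 and was detected on 5 arrays, Nars2, the asparaginyl enzyme, by 1.71 ± 0.72 with detection on 4, and Mtrf1, of the release factor family, by 0.74 ± 0.54 with detection on 6. Between K and B, Mtrf1 differed by 0.99 ± 0.54.

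Of the assembly factors, Noa1, a GTPase needed for the small subunit, differed by -0.41 ± 0.17 between K and B and by -0.24 ± 0.17 between G and B (limma F test, adjusted p = 0.903). Its mice of feed K, at 9.72, 9.63 and 9.95, and of feed G, at 9.89, 9.83 and 10.09, lay below those of feed B, at 10.29, 10.13 and 10.12. Mrm3, a methyltransferase of the large ribosomal RNA that was detected on 3 arrays, differed by -0.75 ± 0.37 between K and B and by 0.63 ± 0.37 between G and K. Tfam, the packaging and transcription factor of mitochondrial DNA, read 10.87, 11.04 and 10.27 on feed B, 10.93, 10.67 and 10.91 on feed K, and 10.66, 10.73 and 10.41 on feed G, with full overlap. Slirp, which stabilizes mitochondrial messages, differed by -0.25 ± 0.17 between K and B and by -0.20 ± 0.17 between G and B.

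Divergent partners gave few further values. Sars2, the mitochondrial seryl-tRNA synthetase that starts 146 bases from Mrps12, read 9.52, 9.37 and 8.92 on feed B, 9.58, 9.28 and 10.38 on feed K, and 9.77, 9.46 and 9.19 on feed G. K4 was the highest mouse for both Sars2 and Mrps12. Twnk, the helicase of mitochondrial DNA that starts 115 bases from Mrpl43, was detected on 5 arrays.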

How the data were processed

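RNA of 9 jejuna, 1 mouse per array, was reverse-transcribed with a digoxigenin label and read by chemiluminescence on Applied Biosystems arrays. The authors deposited for each array a linear signal intensity, corrected for background and spatially normalized by the scanner software, and a signal-to-noise score. They also deposited a normalized intensity, identical to the table of the whole series; what it was divided by is not given in the sources used here. Per the labels RMA is among the processing tools.

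Failed spots (flag over 5000) were dropped. Intensities were quantile normalized with the arithmetic mean, after the study's methods, put on the log2 scale and averaged per gene (limma 3.58.1, R 4.3.3). Genes detected on at least 3 arrays were tested with lmFit and eBayes, with Benjamini-Hochberg adjustment at 0.05 over all of them. The fits were tested on simulated data. Other steps used Python 3.11.15. The samples of a feed are separate mice, and the number of arrays limits the precision. Time of day at sampling was not randomized, and labels and methods name different RNA kits.

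The members and lists were chosen with earlier results of these data known. Genes named are the 8 members with the smallest F test p, the 6 with the lowest and the 6 with the highest SD, those with several probes, those never detected, 10 members with known roles, and the 2 smallest p of each pathway list; other genes are named for a count.

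Alternatives were median scaling, the authors' normalized values, the brightest probe, failed spots kept, other detection limits, other F tests, an SD taken within feeds, and 1 mouse fewer. Leaving out 3 mice, using only genes with 1 probe, and setting members relative to all genes were chosen after seeing the data.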

Additional observations from a re-analysis of the deposited data

Results flagged for a closer look

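Over the 9 mice, 1 of the 58 members detected on all arrays had a mouse that stood apart by Dixon's test. Mrps6 read 11.77 in G11 and 11.32 in the next mouse, a gap of 0.520 of the whole range, above the critical value for 9 mice. Chance gives such a gap in about 1 in 20 genes, which would be 2.9 of the 58. The feeds, with 3 mice each, are too small for this test.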

How the results depend on the processing

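With 20 alternatives of the F test over feeds and 18 of each pair of feeds, limma and the other F tests called 0 members after adjustment. At an unadjusted p of 0.05 the F test counted 1 member in the fit reported (all genes 5.37%), 3 after median scaling (11.1%), 0 with the brightest probe (5.39%), 5 of 69 without a filter on dim genes (5.72%), 2 without B7 (5.14%), 3 without B10 (10.2%) and 3 without the 3 mice with high Fabp6 (12.7%). The median SD over mice was 0.316 after median scaling and 0.260 with the authors' values, and leaving out 1 mouse gave 0.179 to 0.202. The number of members within 2-fold was 50 to 51 with 1 mouse left out, and 58 were detected on all arrays each time. After median scaling the difference between feeds G and B turned to 0.10 for Mrpl35, 0.12 for Mrpl54 and 0.20 for Mrpl37, on a scale where all genes moved by 0.53. Relative to all genes the median difference of the members between G and B was -0.052 without the 3 mice with high Fabp6 (-0.12 with them), and -0.15 to -0.09 with 1 mouse left out. The corresponding ranges were -0.10 to -0.03 between K and B and -0.08 to -0.01 between G and K. All of these relative differences were below 0. No paired analysis was possible because the feeds share fewer than 2 mouse numbers, and a shared number names different mice. A spot under the detection limit gives only noise, so nothing can be said of Mrpl20 and Mrps14.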
